A study of Rattus norvegicus with 8 samples.

Results

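Gene expression of reporter PBMCs (peripheral blood mononuclear cells, that is, blood lymphocytes with monocytes) was compared between culture in normoxic control plasma and culture in autologous plasma, both from rats never exposed to hypoxia. Of the 8 arrays of the study, 4 belong to this comparison, 2 for each plasma, and they were chosen by their labels alone. All 14217 genes with a probe set of a single symbol were compared, each through its brightest probe set. The 2 cell donors were healthy male Brown Norway rats of about 180 days, BN1 and BN2. Control plasma was a pool from 8 male Sprague-Dawley rats that had been kept at 21% oxygen during the sessions of postnatal days 2 to 6 and were bled at PD114 (postnatal day) by decapitation, into EDTA, after an overnight fast. Autologous plasma came from the male Brown Norway rats of about 180 days that also gave the cells, and whether they were fasted is not given in the sources used here. The cells, 500000 in 500 µl of medium with 20% plasma, were cultured for 6 h in plates of low attachment, and each culture was hybridized to its own Affymetrix rat array. Each plasma was prepared once, so that its strain, age, pooling and collection go together and cannot be told apart, and the p-values measure only the spread between cultures of 2 cell donors. The source names of both autologous arrays mention BN2 and the treatment label of both mentions BN1 plasma, so that the match of cells and plasma within that group is not certain. Some labels say serum where the design says plasma.

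Plasma carries antibodies, complement, lipoproteins, clotting factors and hormones, and blood cells sense these through receptors on their surface or in the nucleus. Monocytes are the cells of the mononuclear fraction that carry most pattern recognition receptors, Fc receptors and scavenger receptors. They answer stimulation within hours by making cytokines and chemokines, largely through the transcription factor NF-kB, and on the way to macrophages they gain lysosomal, lipid handling and matrix genes. Glucocorticoids, such as the corticosterone of the rat, bind a nuclear receptor that raises genes such as *Tsc22d3* and *Fkbp5* and lowers many cytokine genes.

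With control plasma the PBMCs had far more genes at a higher level than at a lower one. By limma, at a Benjamini-Hochberg adjusted p under 0.05 and a minimum change of 1.2-fold, 347 genes (2.44% of those tested) differed. Of these, 314 (2.21%) rose and 33 (0.232%) fell with control plasma relative to autologous plasma. The rises reached at least 2-fold in 145 genes, at least 4-fold in 51 and at least 8-fold in 20, but only 3 falls reached 2-fold. The median log2 ratio of control over autologous plasma was 0.93 among the genes that rose, -0.70 among those that fell and -0.01 over all genes. All 347 genes passed 1.2-fold in the same direction in both donors, which a call with 2 arrays per plasma nearly requires. Over all genes the log2 ratios of the donors, paired by array title, correlated at 0.66, and 143 genes passed 1.2-fold in opposite directions. By the criterion of the study, a Rank Product p under 0.05 with 1.2-fold, 1440 genes (10.1%) differed, 876 of them higher and 564 lower. The 1.2-fold threshold alone gave 1459 genes, 895 higher and 564 lower, so that the Rank Product p asked little more. Leaving out 1 control array lowered the number of rises to 176 (without BN1) or 142 (without BN2), and the number of falls to 6 or 3. Without the autologous array of BN2, 224 genes rose and 16 fell.

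**Figure D1:**
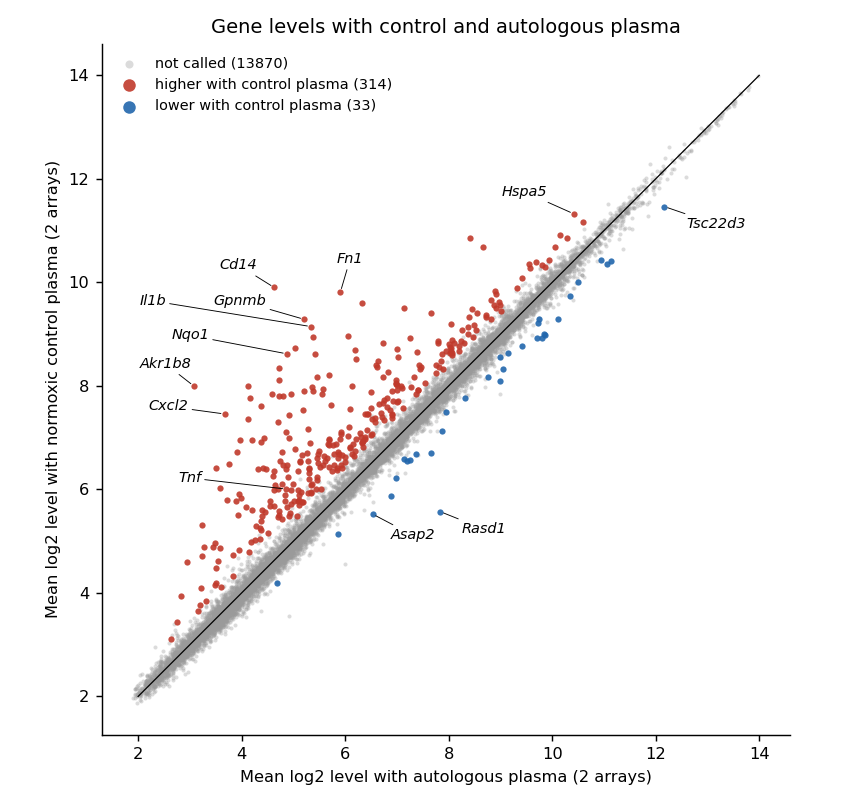
Mean log2 level of each of 14217 genes with autologous plasma (horizontal axis) and with normoxic control plasma (vertical axis), each the mean of 2 arrays, where the line marks equal levels. The 314 genes that rose (red) spread far above the line up to *Cd14*, but the 33 genes that fell (blue) lie close under it, with *Rasd1* the farthest.

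The largest rise was that of *Cd14*, which encodes the co-receptor through which monocytes recognize lipopolysaccharide. Its log2 level was 4.48 (BN1) and 4.78 (BN2) with autologous plasma and 9.78 and 10.03 with control plasma, a log2 ratio of 5.28 ± 0.13 (SE by limma, adjusted p = 8.55e-07) or 38.8-fold. Both control arrays thus stood far above both autologous arrays, which lay close together. The next was *Akr1b8*, an aldo-keto reductase that detoxifies reactive aldehydes, at 3.16 and 2.99 with autologous and 7.83 and 8.17 with control plasma (4.93 ± 0.21, adjusted p = 9.83e-06). *Gpnmb*, a membrane glycoprotein of macrophage lysosomes, went from 4.67 and 5.74 to 9.09 and 9.48 (4.08 ± 0.31), and *Fn1*, the matrix protein fibronectin, from 5.36 and 6.46 to 9.69 and 9.94 (3.91 ± 0.30). In both of these genes the autologous arrays lay more than 1 log2 unit apart, BN2 above BN1, and neither overlapped the control arrays. The other 11 of the 15 largest rises had log2 ratios of 3.25 to 3.87, and the largest adjusted p among the 15 was 0.000271. They were the C-type lectin receptor *Clec4a3*, the cytokine *Il1b*, the chemokine *Cxcl2*, the quinone reductase *Nqo1*, the secreted matrix protein *Tgfbi*, the immunoglobulin superfamily receptors *Igsf6*, *Pilra* and *Cd300c2*, the stress response gene *Ier3*, the pore-forming macrophage protein *Mpeg1* and the complement component *C3*. All 15 remained called under every alternative setting, although the mean of its 2 probe sets put *Mpeg1* at 2.03 in place of 3.57.

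Cell type markers were examined next, since a PBMC culture can lose or gain a cell type. Monocyte markers moved as a group: 12 of 17 measured rose (70.6%, beside 2.21% of all genes) and 0 fell. The median log2 ratio was 1.05 and all 17 ratios were above 0, as were 6719 of the 14217 over all genes. Those that rose ranged from 0.63 for *Fcer1g*, the shared signalling chain of Fc receptors, to 5.28 for *Cd14*. *Csf1r*, the receptor for the growth factor on which monocytes depend, was at 4.53 and 5.37 with autologous and 7.63 and 8.04 with control plasma (2.89 ± 0.25, adjusted p = 0.000414). *Lyz2*, the lysozyme of monocytes and granulocytes, was at 7.93 and 8.88 and then at 10.72 and 10.98 (2.45 ± 0.26, adjusted p = 0.00126). Neither gene overlapped between plasmas, and *Tyrobp*, a signalling adaptor of myeloid and NK cells, differed less, from 8.74 and 9.05 to 9.70 and 9.98 (0.95 ± 0.15, adjusted p = 0.0154). The 5 monocyte markers that were not called had log2 ratios of 0.17 (*Ctss*, adjusted p = 0.585), 0.22 (*Ms4a7*, 0.657), 0.41 (*Cx3cr1*, 0.227), 0.46 (*Cybb*, 0.0655) and 1.05 (*Adgre1*, 0.0601). Summed on the linear scale, the 17 monocyte markers came to 4443 and 4827 with autologous and 9355 and 10562 with control plasma. The number of monocytes and the level of each marker per monocyte cannot be told apart in such bulk cultures, and the cause was not tested. Without the control array of BN1, 10 monocyte markers rose, and without that of BN2, 9.

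Markers of the other cells of blood gave fewer calls. Of 20 T cell markers 0 were called, with a median log2 ratio of 0.01 and a range of -0.51 to 0.45, and their summed level was 28726 and 28110 with autologous and 27337 and 26586 with control plasma. In NK and cytotoxic cells 0 of 16 markers were called, with a median of -0.08. B cell markers gave 2 rises of 12 (16.7%, beside 2.21% of all genes). These were *Blk*, a kinase of the B cell receptor, at 0.77 and *Fcer2*, the low affinity receptor for IgE, at 1.26. All 11 platelet markers had ratios below 0, from -0.29 to -0.07, and 0 of them were called. Neutrophil markers gave 1 rise of 8, *Csf3r* at 0.87, and dendritic cell markers 1 of 7, *Cd83* at 0.67. Without 1 array, 0 (control BN1) to 3 (autologous BN1) B cell markers rose, and 1 fell without the autologous array of BN2. The call of *Csf3r* was lost without the control array of BN2 or either autologous array (adjusted p = 0.081 to 0.133), and that of *Cd83* without either control array or the autologous array of BN2 (0.0693 to 0.107). With the donor as a block, 2 dendritic cell markers rose. None of the 8 erythroid, 10 mast cell and basophil and 6 plasma cell markers was called.

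**Figure D2:**
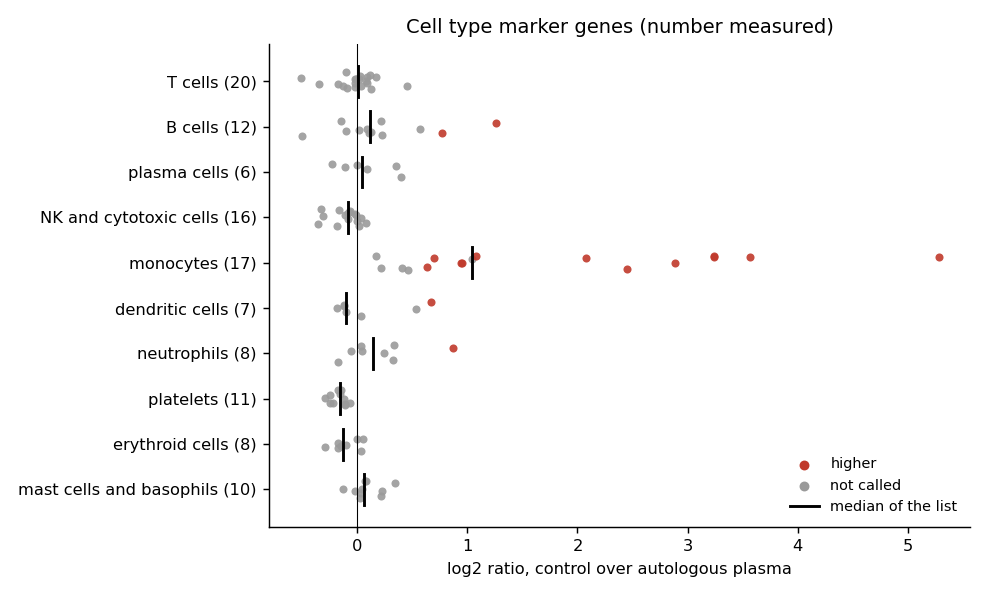
Log2 ratio of control over autologous plasma (horizontal axis) for the measured marker genes of 10 cell types, where each point is a gene, red points rose, grey points were not called and the bar is the median of the list. Monocyte markers reach from 0.17 to 5.28, but the T cell markers stay between -0.51 and 0.45.

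Inflammatory cytokines were next, and the count of rises in each list from here on stands beside 2.21% of all genes. Of 28 measured, 6 rose and 0 fell, and the median of the list was 0.15. *Il1b*, the secreted IL-1 that drives fever and neutrophil recruitment, was at 5.21 and 5.47 with autologous and 9.06 and 9.23 with control plasma (3.81 ± 0.14, adjusted p = 4.29e-06), 14-fold higher. *Vegfa*, the endothelial growth factor, went from 4.09 and 4.30 to 6.84 and 7.08 (2.76 ± 0.15, adjusted p = 2.97e-05), and *Tnf*, an early cytokine of monocytes, from 4.73 and 5.00 to 6.04 and 5.98 (1.14 ± 0.13, adjusted p = 0.00216). *Pdgfa*, *Osm* and the IL-1 receptor antagonist *Il1rn* rose by 1.47, 0.73 and 0.59 on the log2 scale. Averaged over its probe sets, the ratio of *Vegfa* was 1.46 and that of *Tnf* 0.52. In place of 6, 4 cytokines rose without either control array or the autologous array of BN2. Not every cytokine passed the test. *Il1a*, the IL-1 that stays in the cell, was at 4.61 and 4.08 with autologous and 5.02 and 5.24 with control plasma (0.78 ± 0.18, adjusted p = 0.0897). Its other probe set had a log2 ratio of -0.11 and was not called either. *Il6* lay low on the array in every culture, between 2.62 and 3.55 (0.56 ± 0.19, adjusted p = 0.31).

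Chemokines gave 5 rises of 25, 0 falls and a median of 0.10. *Cxcl2* and *Cxcl1* attract neutrophils, *Ccl2* and *Ccl3* attract monocytes and other leukocytes, and *Cxcl16* is a membrane-bound ligand for T cells. *Cxcl2* was at 3.43 and 3.91 with autologous and 7.25 and 7.67 with control plasma (3.79 ± 0.23, adjusted p = 4.74e-05). *Cxcl16* rose by 2.71 and *Ccl2* by 2.08, from 3.52 and 2.93 to 5.23 and 5.39 (adjusted p = 0.001). *Cxcl1* went from 3.14 and 3.74 to 4.94 and 4.83 (1.44 ± 0.17, adjusted p = 0.0027). *Ccl3* was already high with autologous plasma, at 8.50 and 8.01, and reached 9.01 and 9.17 (0.83 ± 0.16, adjusted p = 0.0371), a call that was lost with the donor as a block (adjusted p = 0.0705) and without the control array of BN1 (0.153), that of BN2 (0.318) or the autologous array of BN2 (0.127). Receptors for cytokines and chemokines gave 7 rises of 31, led by *Ccr1* (3.09), *Csf1r* and the GM-CSF receptor *Csf2ra* (1.43), and without either control array 4 of the 31 rose.

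Of the NF-kB subunits, inhibitors and targets, 7 of 26 rose and 0 fell, with a median of 0.45. *Ier3* rose by 3.61, *Bcl2a1*, which protects cells from apoptosis, by 1.84, the adhesion molecule *Icam1* by 1.44 (6.97 and 6.70 to 8.18 and 8.36, adjusted p = 0.000298) and the nuclear cofactor *Bcl3* by 0.98. *Nfkbia*, the inhibitor that NF-kB itself induces, was at 10.55 and 10.55 with autologous and 10.59 and 10.79 with control plasma (0.13 ± 0.10, adjusted p = 0.788). Another gene of the same family, *Nfkbiz*, chosen after its values were seen, went from 8.74 and 8.89 to 9.64 and 9.67 (0.84 ± 0.09, adjusted p = 0.0013). Without the control array of BN1 or that of BN2, 4 genes of this list rose, and *Bcl3*, at 0.45 when averaged over its probe sets, had an adjusted p of 0.0703 and 0.114.

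A motif that NF-kB is known to bind was then looked for in promoters. The motif GGGNNTTTCC, in which N is any base, was looked for on both strands of the RefSeq promoters (build GRCr8, 250 bases before to 50 after the start site), after the values had been seen. It was found in 14 of the 259 genes that rose and have a promoter in the table (5.41%), in 0 of the 27 that fell, in 199 of 11733 tested genes (1.7%) and in 1.53% of all promoters. *Cxcl1*, *Cxcl2* and *Nfkbiz* hold it, but the windows of *Il1b* and of *Bcl2a1*, *Icam1*, *Bcl3*, *Cd83* and *Map3k8*, which also rose on the NF-kB list, do not, and *Ier3* was not matched to a promoter. The stretches around the matches are given 5′ to 3′ along the gene, with the motif in capitals, because they hold the matches of 3 genes described above. In *Cxcl1* (chr14:17479371-17479448, minus strand) the 2 matches start at -102, on the opposite strand, and -84, in *Cxcl2* (chr14:17467275-17467354, minus strand) at -74 and -54, and in *Nfkbiz* (chr11:58251683-58251742, plus strand) at -13.
*Cxcl1*: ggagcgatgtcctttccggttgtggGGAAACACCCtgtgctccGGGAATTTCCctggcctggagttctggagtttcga
*Cxcl2*: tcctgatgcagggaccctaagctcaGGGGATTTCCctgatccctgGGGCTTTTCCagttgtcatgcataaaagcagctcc
*Nfkbiz*: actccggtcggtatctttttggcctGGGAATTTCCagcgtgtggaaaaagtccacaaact

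**Figure D3:**
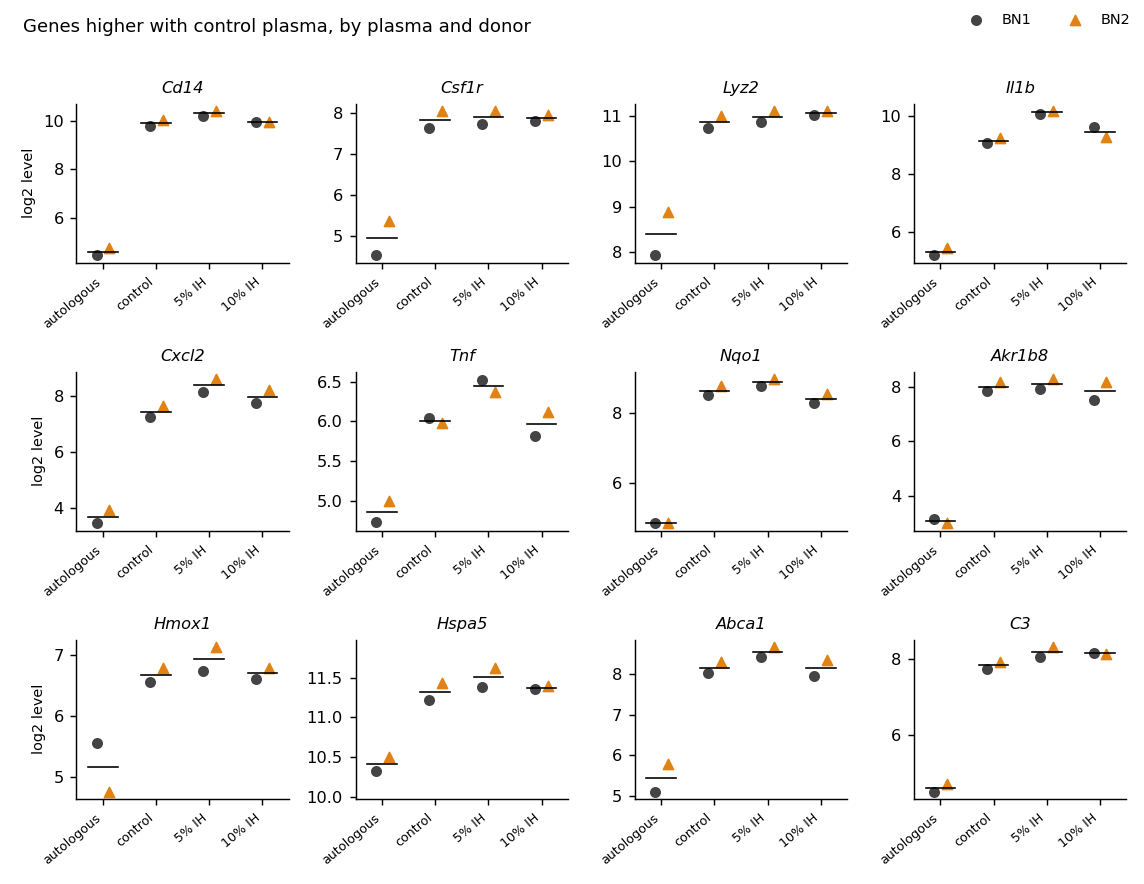
Log2 level (vertical axes) of 12 genes that rose with control plasma in all 8 cultures, by plasma (horizontal axes) and cell donor (circles BN1, triangles BN2), with bars at the means. In every panel both autologous cultures lie under the 6 cultures with Sprague-Dawley plasma. For *Cd14* they lie at 4.48 and 4.78 against 9.78 and 10.03 with control plasma. The panels show only genes called higher, so that low autologous levels follow from the choice of genes.

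Receptors of the innate immune system were examined next. Among the Toll-like receptors and adaptors 5 of 19 rose and 0 fell (median 0.34). Beside *Cd14* these were *Tlr8* and *Tlr7*, receptors for single-stranded RNA, *Tlr2*, a receptor for bacterial lipoproteins, and *Tlr4*, the partner of *Cd14*. *Tlr8* went from 4.23 and 4.65 to 6.92 and 7.07 (2.56 ± 0.18, adjusted p = 0.000115), *Tlr7* rose by 0.90 and *Tlr2* by 0.86. Without the control array of BN1, 3 of these genes rose, without that of BN2, 2, and without the autologous array of BN1, 3. Of the Fc receptors, Siglecs and lectins, 11 of 23 rose and 1 fell, and their median of 0.57 was the highest of the lists other than the cell markers. *Fcgr1a*, the high affinity receptor for IgG, was at 3.86 and 4.38 with autologous and 7.19 and 7.52 with control plasma (3.24 ± 0.21, adjusted p = 7.01e-05). The inhibitory receptors *Lilrb4* and *Pilra* rose by 3.21 and 3.40, and the gene that fell was *Lgals9*, a galectin, by 0.74 (adjusted p = 0.0462). The call of *Lgals9* was lost with the donor as a block (adjusted p = 0.0875) and without any 1 of the 4 arrays (0.0973 to 0.319).

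Complement genes gave 3 rises of 27. *C3*, the central component, went from 4.50 and 4.69 to 7.75 and 7.93 (3.25 ± 0.12, adjusted p = 4.29e-06). *C5ar1*, the receptor for the C5a fragment, rose by 2.24 and *Itgam*, a chain of complement receptor 3, by 2.08. The median of the complement list was 0.01. Costimulation genes gave 3 rises of 18, namely *Cd86* (1.21), *Cd83* (0.67) and *Cd40* (0.57). The calls of *Cd83* and *Cd40* were lost without the control array of BN1 (adjusted p = 0.107 and 0.129), that of BN2 (0.0693 and 0.202) or the autologous array of BN2 (0.0722 and 0.127). None of the 19 antigen presentation genes was called, with *RT1-DMa*, which loads class II molecules, the highest at 0.67 ± 0.19 (adjusted p = 0.197).

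Genes of the response to oxidants rose too. The transcription factor NRF2 drives enzymes that reduce quinones, break down haem and supply glutathione and NADPH, and 7 of 26 genes of this list rose, 0 fell and the median was 0.32. *Nqo1*, the quinone reductase, was at 4.88 and 4.86 with autologous and 8.49 and 8.75 with control plasma (3.75 ± 0.13, adjusted p = 4.29e-06), 13.4-fold higher. *Hmox1*, which breaks down haem, was at 5.56 and 4.76 and then at 6.56 and 6.79 (1.51 ± 0.24, adjusted p = 0.013), so that its 2 autologous cultures lay far apart. Its adjusted p was 0.074 without the control array of BN1 and 0.149 without that of BN2. *Slc7a11*, the cystine carrier, rose by 1.11, from 5.35 and 5.25 to 6.27 and 6.56 (adjusted p = 0.0013). *Txnrd1*, *Tkt* and *Srxn1* rose by 0.92, 0.87 and 0.79.

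Chaperones of the endoplasmic reticulum rose by smaller and more even amounts. In the list of ER stress and the unfolded protein response 7 of 21 rose, 0 fell and the median was 0.33, and the 7 ratios lay between 0.57 and 0.91. *Hspa5*, the main chaperone of the compartment, was at 10.33 and 10.50 with autologous and 11.22 and 11.43 with control plasma (0.91 ± 0.12, adjusted p = 0.00442). *Creld2* rose by 0.88, *Pdia4*, a disulphide isomerase, by 0.74 and *Sdf2l1* by 0.69. Without 1 array, 0 (control BN2) to 3 of these genes rose, and *Hspa5* had an adjusted p of 0.0654 without the control array of BN2. Of the 13 heat shock genes 0 were called, with a range of -0.11 to 0.13. The ER stress element, CCAATNNNNNNNNNCCACG, was searched for in the same way and found in 3 of 259 promoters of genes that rose (1.16%), those of *Hspa5*, *Hsp90b1* and *Creld2*, in 17 of 11733 tested genes (0.145%) and in 0.0657% of all promoters. It starts at -43 in *Hspa5* (chr3:38452948-38453016, plus strand), at -176 and, on the opposite strand, at -72 in *Hsp90b1* (chr7:23012322-23012494, minus strand) and at -145, on the opposite strand, in *Creld2* (chr7:121789214-121789282, plus strand). *Hsp90b1*, chosen for this match, encodes another chaperone and rose by 0.59, from 10.24 and 10.32 to 10.78 and 10.96 (adjusted p = 0.0277). The stretches are shown with the element in capitals, since these 3 are the genes that rose and hold it.
*Hspa5*: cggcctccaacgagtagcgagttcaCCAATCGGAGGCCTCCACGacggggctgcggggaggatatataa
*Hsp90b1*: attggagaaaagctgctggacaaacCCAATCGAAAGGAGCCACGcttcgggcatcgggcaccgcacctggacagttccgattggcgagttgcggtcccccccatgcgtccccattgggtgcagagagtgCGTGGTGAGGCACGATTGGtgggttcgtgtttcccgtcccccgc
*Creld2*: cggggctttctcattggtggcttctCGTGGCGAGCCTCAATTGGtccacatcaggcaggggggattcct

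Lipid handling, lysosomal and matrix genes rose as well, each in part. *Abca1*, which exports cholesterol from macrophages, was at 5.11 and 5.80 with autologous and 8.03 and 8.30 with control plasma (2.71 ± 0.22, adjusted p = 0.000281), and it led 3 rises among 20 LXR targets and cholesterol efflux genes. LXR itself, *Nr1h3*, rose by 0.78. *Plin2*, which coats lipid droplets, rose by 2.39 and the fatty acid binding protein *Fabp5* by 1.80, with *Angptl4* the third of 27 genes (adjusted p = 0.0431, and 0.0673 with the donor as a block) of lipid droplets and fatty acid oxidation. In cholesterol synthesis and uptake 3 of 19 rose, all by little, with *Msmo1* at 0.60, *Sqle* at 0.59 and *Mvd* at 0.54, and 0 of the 19 rose without either control array. Lysosomal genes gave 6 rises of 26, among them *Cd63* (2.30) and the protease *Ctsl* (1.04), and 4 without the control array of BN1 or the autologous array of BN2 and 3 without the control array of BN2. Matrix genes gave 6 of 27, among them the proteoglycan *Vcan* at 3.24 and the membrane protease *Mmp14* at 1.90, and all 6 of the matrix count were also reached without any 1 array. In prostaglandin and leukotriene synthesis 4 of 17 rose: *Ptgs2*, the inducible cyclooxygenase, went from 3.21 and 2.69 to 4.69 and 4.52 (1.65 ± 0.18, adjusted p = 0.00156), and the phospholipase *Pla2g4a* rose by 1.46, and without either control array or the autologous array of BN1 the count was 2. Coagulation and fibrinolysis gave 4 rises of 21, led by the transglutaminase *Tgm2* (2.54), the urokinase receptor *Plaur* (2.08) and *Thbd*, thrombomodulin (1.85). Averaged over their probe sets, *Mmp14* was at 1.03, *Tgm2* at 1.32, *Plaur* at 1.06 and *Thbd* at 0.77.

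Of the remaining lists, several held no called gene. None of 18 cytosolic ribosomal proteins, 30 proteasome subunits, 28 subunits of the respiratory chain, 29 cell cycle genes, 17 clock genes and 11 reference genes was called, and their medians lay between -0.03 and 0.03. Immediate-early transcription factors gave 3 rises of 25 (12%), with *Fos* at 1.34 (0.59 as the mean of its probe sets). Interferon-stimulated genes gave 3 of 39 (7.69%, beside 2.21% of all genes), with the ubiquitin-like *Ubd* from 6.27 and 6.12 to 8.84 and 8.55 (2.51 ± 0.15, adjusted p = 4.15e-05). Genes of hypoxia and glycolysis gave 3 rises and 1 fall of 29, with 1 rise without the control array of BN2 or the autologous array of BN1, and 0 falls without either control array, without the autologous array of BN2 or with the donor as a block and 2 without the autologous array of BN1. Myeloid transcription factors gave 5 rises of 16, with *Id2* at 1.27, *Cebpb* at 1.15 and *Ets2* at 1.05, and 1 fall, *Lmo2*. Without the control array of BN2, 1 immediate-early, 1 interferon-stimulated and 2 myeloid transcription factor genes rose. The level of the monocyte markers moved with all of these rises, and its part in the other lists was not tested.

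**Figure D4:**
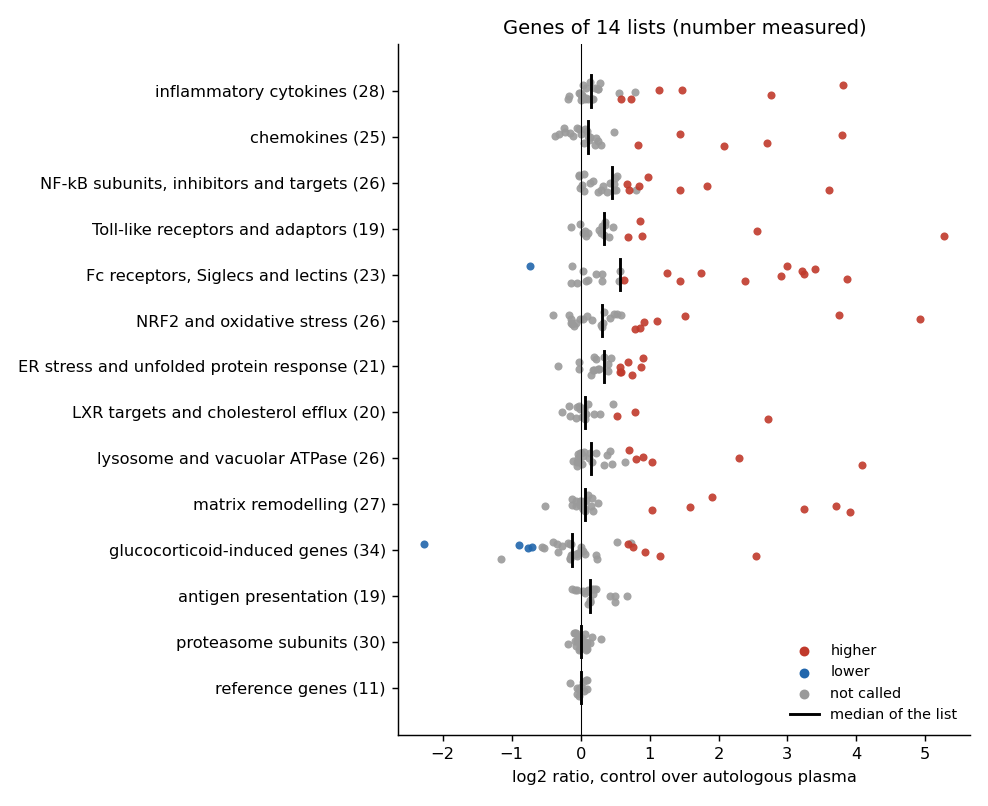
Log2 ratio of control over autologous plasma (horizontal axis) for the genes of gene lists, where each point is a measured gene, red points rose, blue points fell, grey points were not called and the bar is the median of the list. Rises reach past 3 in several lists up to *Cd14* at 5.28, the ER stress genes stay within 0.91, and the glucocorticoid list holds 5 rises and 4 falls.

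The genes that fell with control plasma were few, and stood higher with autologous plasma. *Rasd1*, a small G protein first known as induced by dexamethasone, fell the most. Its log2 level was 7.23 (BN1) and 8.44 (BN2) with autologous and 5.54 and 5.61 with control plasma (-2.27 ± 0.31, adjusted p = 0.0058), 4.81-fold lower. The other 14 of the 15 largest falls had log2 ratios of -1.01 to -0.72. Among them were *Asap2*, which regulates small GTPases of membrane traffic (6.35 and 6.71 against 5.52 and 5.53, adjusted p = 0.00261), and the planar polarity protein *Vangl2* (6.58 and 7.18 against 5.95 and 5.80, adjusted p = 0.0204). *Gadd45a*, a growth arrest gene, fell by 0.90 and *Lmo2*, a transcriptional cofactor of blood cells, by 0.89, while *Actn1*, which crosslinks actin, went from 10.09 and 10.14 to 9.28 and 9.31 (-0.82 ± 0.09, adjusted p = 0.00185). *Ddit4*, an inhibitor of mTOR signalling, fell by 0.77, and *Cblb*, a ubiquitin ligase that restrains T cell activation, by 0.72. *Zcchc18*, *Cdyl2*, *Ipmk*, *Rasa2*, *Baz2b*, *Bex4* and *Lgals9* made up the 15. *Ipmk* fell by 0.84, but its other probe set had a log2 ratio of 0.14 and was not called. In 27 of the 33 genes the fall was larger in BN2 than in BN1, with medians of -0.78 and -0.60. Of the 15, *Asap2* and *Actn1* were called with every array left out in turn. Without the control arrays the adjusted p of *Rasd1* was 0.0646 (BN1) and 0.0688 (BN2), and with the donor as a block *Bex4*, *Ddit4*, *Lgals9* and *Rasa2* lost their calls (adjusted p = 0.0629 to 0.0875).

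Genes known to be induced by glucocorticoids moved both ways. Of 34 measured, 4 fell and 5 rose, and the median was -0.13. This list was written with genes of the published comparisons in view, so its count is not independent of them. The 4 that fell were *Rasd1*, *Gadd45a*, *Ddit4* and *Tsc22d3*. *Tsc22d3*, the leucine zipper protein GILZ, was at 11.99 and 12.35 with autologous and 11.46 and 11.47 with control plasma (-0.70 ± 0.13, adjusted p = 0.0274, and 0.0529 with the donor as a block). *Fkbp5*, a chaperone of the receptor, was at 8.51 and 9.46 against 7.82 and 7.86 (-1.15 ± 0.25, adjusted p = 0.0696), and its 2 autologous cultures lay far apart. By donor its log2 ratio was -0.70 (BN1) and -1.60 (BN2). The 5 that rose were *Tgm2*, *Cebpb*, *Hsd11b1*, which regenerates active glucocorticoid (0.94), *Angptl4* and *Ampd3*. The part of the monocyte marker level in these rises was not tested. *Per1*, a clock gene with a glucocorticoid response, was at 8.22 and 8.43 against 7.96 and 8.14 (-0.28 ± 0.11, adjusted p = 0.411), and the receptor *Nr3c1* at 9.82 and 9.88 against 9.85 and 9.72 (-0.06 ± 0.09, adjusted p = 0.907). Without the control array of BN1 or of BN2, 0 genes of the list fell, and without the autologous array of BN2, 1, but 6 fell without the autologous array of BN1. Without the control array of BN2, 1 gene of the list rose.

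**Figure D5:**
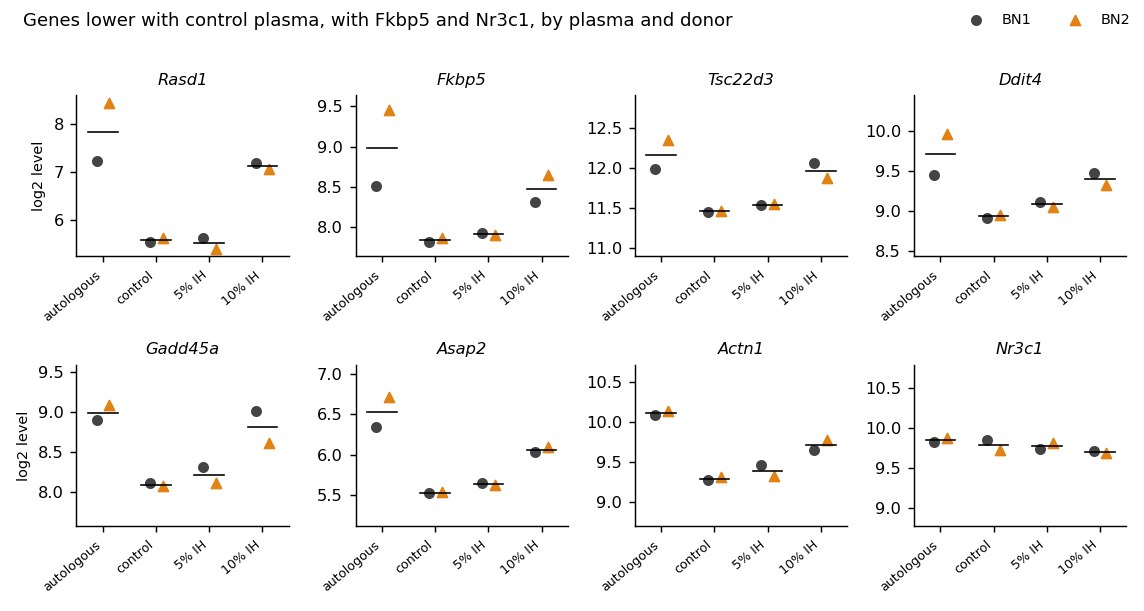
Log2 level (vertical axes) of 6 genes that fell with control plasma, and of *Fkbp5* and *Nr3c1*, which were not called, in all 8 cultures by plasma (horizontal axes) and cell donor (circles BN1, triangles BN2), with bars at the means. For *Rasd1* the autologous cultures at 7.23 and 8.44 and the 10% IH cultures lie above the control and 5% IH cultures, and *Nr3c1* stays level.

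The cultures with plasma of rats exposed to intermittent hypoxia (IH) as neonates, on the other 4 arrays, showed where these levels lay with other pools of Sprague-Dawley plasma. Comparisons of those arrays with either group here share its arrays, so only levels are given. *Cd14* had a mean of 9.90 with control plasma, 10.31 with 5% IH and 9.93 with 10% IH plasma, and *Nqo1* of 8.62, 8.86 and 8.39. The summed monocyte markers came to 10286 and 11763 with 5% IH plasma and 10458 and 10845 with 10% IH plasma, both more than with autologous plasma. *Il1b* lay at 9.15 with control, 10.13 with 5% IH and 9.46 with 10% IH plasma, against 5.34 with autologous plasma. *Rasd1* had a mean of 7.11 with 10% IH plasma and 5.50 with 5% IH plasma, beside 5.57 with control and 7.84 with autologous plasma. In 32 of the 33 genes that fell both 10% IH arrays lay above both control arrays, and in 12 both 5% IH arrays did. The 33 genes were called for low control levels, and the share over all genes was not counted. Whether the counts of 32 and 12 differ was not tested.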

How the data were processed

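RNA of 8 PBMC cultures was measured on Affymetrix rat expression arrays. The authors made the deposited log2 values with Robust Multichip Analysis, which corrects background, normalizes by quantiles and summarizes probes. The deposited table holds 31042 probe sets, between 1.66 and 14.3, with array medians of 5.53 to 5.56, and no further scaling was applied. Quantile normalization hides a change in total RNA, and a level close to the floor compresses a fold. Of the probe sets, 20826 carry 1 symbol in the platform annotation, 436 several and 9780 none. A gene was represented by the probe set of 1 symbol with the highest mean.

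Differences were fitted with limma 3.58.1 (R 4.3.3), with 4 plasma groups over 8 arrays and no donor term, and p-values were adjusted over every probe set. A gene was called at an adjusted p under 0.05 and over 1.2-fold (0.263 on the log2 scale). Standard errors are limma's. The criterion of the study was applied with a Rank Product written for this purpose, with 100 permutations and a 1-sided p under 0.05. Tests were checked on simulated data. Replicate numbers follow the cell donor named in the array titles. The deviations of same-numbered control and autologous arrays from their group means correlated at -0.00387, and so showed no shared donor effect. Levels are not compared between genes except in sums over markers.

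The comparison, the 38 gene lists and 10 marker lists were chosen with earlier results of these data known. Genes were named by a rule: the 15 largest rises and falls among called genes past the threshold in both donors, up to 4 called members of a list (2 members of any kind where fewer than 2 were called), and a few defining genes, of which *Actb* and *Gapdh* had no probe set of a single symbol. Where another gene is named, its values had been seen. Alternatives were the donor as a block, median centring or quantile normalization again, a filter on the lowest 40% of probe sets, the 4 compared arrays alone, an intensity trend with robust moderation, averaging the probe sets of a gene, other Rank Product thresholds and each array left out. Promoters came from RefSeq (GRCr8).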

Additional observations from a re-analysis of the deposited data

How the results depend on the processing

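With 2 cultures per plasma, calls depended on the control arrays more than on the scaling. The 314 rises became 225 to 410 under the alternatives that kept all arrays of the comparison, and 142 to 233 with 1 array left out. The 33 falls became 64 without the 40% of probe sets of lowest mean level, 88 with an intensity trend and robust moderation, 65 when probe sets of a gene were averaged and 8 with only the 4 compared arrays, of which 32, 32, 27 and 8 were among the 33, and 3 to 46 with 1 array left out. Without 1 array, the 551 probe sets called became 223 to 434. The 1440 genes of the study's criterion became 110 where the estimated share of false predictions had to be under 0.05, and 1319 to 1425 with 1 array left out. Paired by donor (replicate block), 294 genes rose and 27 fell, of which 279 were among the 314 and 22 among the 33. With that block 509 probe sets were called, and the criterion of the study on ratios within donor gave 1398 genes. The block took the call from 11 of the 133 named genes, those given with it above and *Angptl4*, *Mvd*, *Pfkfb4*, *Slc7a1* and *Slc7a7*, and changed no other. The 4 compared arrays alone took the call from 26 of them, and averaging of probe sets from 5. Of the 92 named rises 53, and of the 17 named falls 2, kept their call under every alternative, and 0 of the 133 named genes reversed. The 4 falls of the glucocorticoid list became 6 with median centring, the filter on low probe sets, the intensity trend or averaged probe sets. The cause of these shifts was not tested. With the 4 compared arrays alone the fit has fewer degrees of freedom, and the number of arrays limits the precision throughout.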

Other observations

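Several genes of amino acid and iron metabolism also differed between the plasmas. *Ass1*, which makes the precursor of arginine, was at 4.17 and 3.69 with autologous and 5.37 and 5.65 with control plasma (1.58 ± 0.16, adjusted p = 0.00119). It led 3 rises among 15 arginine and nitric oxide genes, the other two being the carriers *Slc7a7* (0.49) and *Slc7a1* (0.43), both of which lost their call with any 1 array left out and with the donor as a block (adjusted p = 0.0529 and 0.068). *Lcn2*, a siderophore-binding protein of myeloid cells, went from 3.54 and 3.61 to 4.71 and 5.05 (1.30 ± 0.12, adjusted p = 0.000772), and was with *Hmox1* one of 2 rises among 14 iron genes. *Asns*, an asparagine synthetase induced when amino acids are short, rose by 0.66 (adjusted p = 0.017), one of 3 among 21 genes of the amino acid response, and its adjusted p was 0.0781 to 0.156 with 1 array left out. *Fas*, a death receptor, rose by 1.11 (0.42 and an adjusted p of 0.061 when averaged over its probe sets) and *Casp4*, an inflammatory caspase, by 0.63, while *Bcl2l11*, which promotes apoptosis, fell by 0.60 (10.20 and 10.49 to 9.71 and 9.77, adjusted p = 0.0284). *Bcl2l11* had an adjusted p of 0.124 to 0.21 without either control array or the autologous array of BN2, and of 0.301 when averaged over its probe sets. Of the phosphatases that switch off MAP kinases, *Dusp6* rose by 1.43 (adjusted p = 0.00346, and 0.051 without the control array of BN2) and the other 8 were not called.

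With arrays paired by the donor in their titles, the 2 cell donors were alike in the genes called but less so over all genes. The labels leave that pairing uncertain for the autologous arrays. The log2 ratios of BN1 and BN2 correlated across genes at 0.949 over the 347 called genes and at 0.66 over all 14217, where genes are not independent and the called genes had to be alike. Past 1.2-fold, 143 genes moved in opposite directions in the donors.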
